A study of Mus musculus with 4 samples.

Results

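Angiopoietin-like proteins are secreted glycoproteins that resemble the angiopoietins in their fibrinogen-like domain but do not bind the angiopoietin receptor Tie2. Angptl1 is known as an inhibitor of vessel growth. Angptl2 is known as a ligand of integrins that is made in inflamed and remodelling tissue. Angptl4 inhibits lipoprotein lipase, the enzyme that frees fatty acids from circulating triglycerides, and its gene is a well known target of the PPAR nuclear receptors and of hypoxia. Of the 328 genes on the Xenium in situ panel, these 3 belonged to the family, and all 3 are described. They were chosen by their family name.

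The skin came from TRE-Pitx1/Krt5-rtTA mice, in which doxycycline in the chow switches on the transcription factor Pitx1 and the Krt5 promoter places the transgene in basal keratinocytes. Littermates on normal chow are called Control and those on doxycycline chow PITX1+. The 4 slides held male unwounded skin (1 Control section, 2 PITX1+), female unwounded skin (2 Control, 2 PITX1+), buccal mucosa of males and females labelled Control and vehicle (7 sections), and male skin on day 4 after a full-thickness wound (1 Control section, 2 PITX1+). GEO's labels name the slides and not the condition of each section. The condition was therefore assigned by the order of the sections across a slide, Control first. The age of the mice and the sex of each buccal section are not given in the labels. Slide and sex cannot be told apart in skin, nor slide and tissue for the mucosa, nor slide and wounding for the wounds.

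The transgene served as the check of that assignment. On the male slide, Pitx1 in keratinocyte-like cells was at 12.3 counts per 1000000 transcripts (CPM) in the Control section and at 1055 and 830 CPM in the sections assigned to PITX1+. On the female slide the 2 sections assigned to Control had 60.1 and 52.8 CPM and those assigned to PITX1+ 43.1 and 75.4 CPM. Pitx1 thus did not separate the female sections, and the change in skin did not pass (1.73 on the log2 scale, SE 1.01, edgeR adjusted p = 0.217). The sections assigned to PITX1+ held more cells than the Control sections of their slide, 68416 and 79061 against 20121 and 14636 on the female and 43142 and 29222 against 18724 on the male slide. Cell number also depends on how much tissue a section holds, so it cannot check the assignment. The members' PITX1+ values are given within each slide as well. Among the wounds, Pitx1 was at 52.2 CPM in the Control and at 633 and 325 CPM in the others. The 6 buccal sections with keratinocyte-like cells had 737 to 1260 CPM. Sections held 136365 to 5581930 transcripts and a median of 11 to 124 transcripts per cell. All comparisons were made over sections, so p-values measure the spread between sections. The study counts the unwounded sections as separate mice or mucosae, while the labels do not tie a section to an animal.

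The cells fell into 45 clusters made without the 3 members and without Pitx1. By their leading genes, 9 clusters were called fibroblast-like, 17 keratinocyte-like, 1 sebaceous-like (counted with the keratinocyte-like cells below), 9 immune-like, 1 vascular-like, 3 mesenchymal-like (muscle and mural genes such as Des and Acta2) and 1 salivary-like. The remaining 4 stayed unnamed. The clusters were named by the same markers, so the following counts describe the classes and cannot check their names. Of the 22 fibroblast markers, 22 were higher in the fibroblast-like cells than in the other cells of PITX1+ skin, and 21 in Control skin and in buccal mucosa. Of the 54 immune markers 42 were higher in their class in Control skin and 46 in the mucosa, and of the 49 keratinocyte markers 47 and 41. Of the 7 mesenchymal markers 7 were higher in their class in Control skin but 4 in the mucosa, and of the 8 vascular markers 7 in Control skin and 6 in the mucosa. Section Buccal 3, the smallest with 2449 cells kept, held no keratinocyte-like cells and enters no comparison of that class.

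RefSeq's promoter table listed Angptl1 and Angptl2, and their upstream sequence is shown because both genes were high in the same cluster of fibroblast-like cells in the mucosa. The 250 bases before the start site that the promoter table uses are given for Angptl1 (chr1:156838773-156839022, GRCm38.p6, + strand) and Angptl2 (chr2:33215711-33215960, + strand), 5′ to 3′, with capitals marking the only match to the searched motifs.
Angptl1: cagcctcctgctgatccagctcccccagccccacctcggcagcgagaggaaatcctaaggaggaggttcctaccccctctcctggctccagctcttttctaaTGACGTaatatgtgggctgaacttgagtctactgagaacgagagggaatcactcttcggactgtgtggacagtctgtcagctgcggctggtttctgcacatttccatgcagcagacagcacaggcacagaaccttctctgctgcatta
Angptl2: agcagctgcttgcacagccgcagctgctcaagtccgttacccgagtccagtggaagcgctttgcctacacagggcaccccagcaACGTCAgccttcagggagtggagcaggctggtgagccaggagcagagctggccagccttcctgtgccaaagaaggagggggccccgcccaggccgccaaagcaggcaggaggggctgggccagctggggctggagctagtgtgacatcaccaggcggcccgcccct
The motifs searched on both strands were TAATCC (the bicoid-type site that PITX factors bind), the PPAR direct repeat, TATAAA and TGACGT (the core of cAMP response elements). Each promoter held 1 TGACGT, on the minus strand in Angptl2, and none of the others. Of all 32851 promoter windows of this length, 12.4% held TATAAA, 6.25% held TAATCC and 6.47% held TGACGT. The last motif was added after the sequences had been seen, and a match is a description only. Angptl1 spans chr1:156839023-156861078, Angptl2 chr2:33215951-33247725 and Angptl4 chr17:33774900-33781575 in the same build, so the last 10 bases of the Angptl2 window lie within the gene's listed span.

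The members differed in the class of cells where they were highest. In the 7 sections of unwounded skin, the mean of log2(CPM + 10) ordered Angptl1 from fibroblast-like (highest) through mesenchymal-like and immune-like to keratinocyte-like and vascular-like cells. Fibroblast-like cells exceeded mesenchymal-like cells by 0.71 ± 0.19 (difference of log2(CPM + 10), SD, n = 7), with the same sign in every section (two-sided exact sign-flip permutation test over sections, p = 0.0156, the smallest that 7 sections allow, adjusted p = 0.042 over 24 pairs of neighbouring classes). The next steps down, to immune-like cells (0.59 ± 0.40) and to keratinocyte-like cells (2.13 ± 0.58), had the same exact p and adjusted p. Immune-like sums also held transcripts of fibroblast markers (given below for Control skin), and their part in the immune-like levels was not tested. The last step, to vascular-like cells, did not pass (exact adjusted p = 0.781). It had that sign in 3 of 7 sections, and the Control vascular-like sums held 1 Angptl1 transcript in 343 cells. The order of these last classes is therefore not settled. The step from mesenchymal-like to immune-like cells was -0.07 with 30 clusters (exact adjusted p = 0.812).

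Angptl2 was highest in mesenchymal-like cells, 0.67 ± 0.27 above fibroblast-like cells, which were 1.09 ± 0.38 above immune-like cells (difference of log2(CPM + 10), SD, n = 7, 7 of 7 sections for both, exact permutation adjusted p = 0.042). Neither of the 2 lower steps passed (exact adjusted p = 0.062 and 0.600). The last one, from keratinocyte-like to vascular-like cells, had that sign in 2 of 7 sections. Among the 5 classes compared, Angptl4 was highest in vascular-like cells, 1.22 ± 0.68 above fibroblast-like cells in 7 of 7 sections (exact permutation adjusted p = 0.042). None of the 3 lower steps passed (exact adjusted p from 0.087 to 0.276). The step from mesenchymal-like to immune-like cells was 0.49 ± 0.48, above 0 in 6 of 7 sections. The vascular-like sums of Control skin held 46 Angptl4 transcripts in 343 cells. Sebaceous-like cells were counted with the keratinocyte-like cells, and unnamed clusters were left out. Unnamed cluster 42, led by Gpx3 and Pparg, had a mean of 7855 CPM in Control and 8213 CPM in PITX1+ sections. Vascular-like cells had 7476 and 6387 CPM. Counted over the nucleus alone, the top step was 0.26 for Angptl1 (exact adjusted p = 0.275) and 1.05 for Angptl4 (exact adjusted p = 0.102).

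In the mucosa Angptl1 was again highest in fibroblast-like cells, 2.02 ± 0.40 above immune-like cells, which were 0.98 ± 0.50 above mesenchymal-like cells (difference of log2(CPM + 10), SD, 7 of 7 sections, exact permutation adjusted p = 0.042). Buccal immune-like sums too held transcripts of fibroblast markers (given below), and their part in the immune-like level was not tested. Keratinocyte-like cells were lowest, 4.82 ± 0.77 below vascular-like cells in 6 of 6 sections (exact adjusted p = 0.062). Angptl2 did not differ beyond its spread between fibroblast-like and mesenchymal-like cells (0.09 ± 0.16, exact adjusted p = 0.276), and mesenchymal-like cells were 1.07 ± 0.29 above vascular-like cells in 7 of 7 (exact adjusted p = 0.042). No neighbouring classes differed beyond their spread in Angptl4 (exact adjusted p from 0.10 to 0.781).

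**Figure D1:**
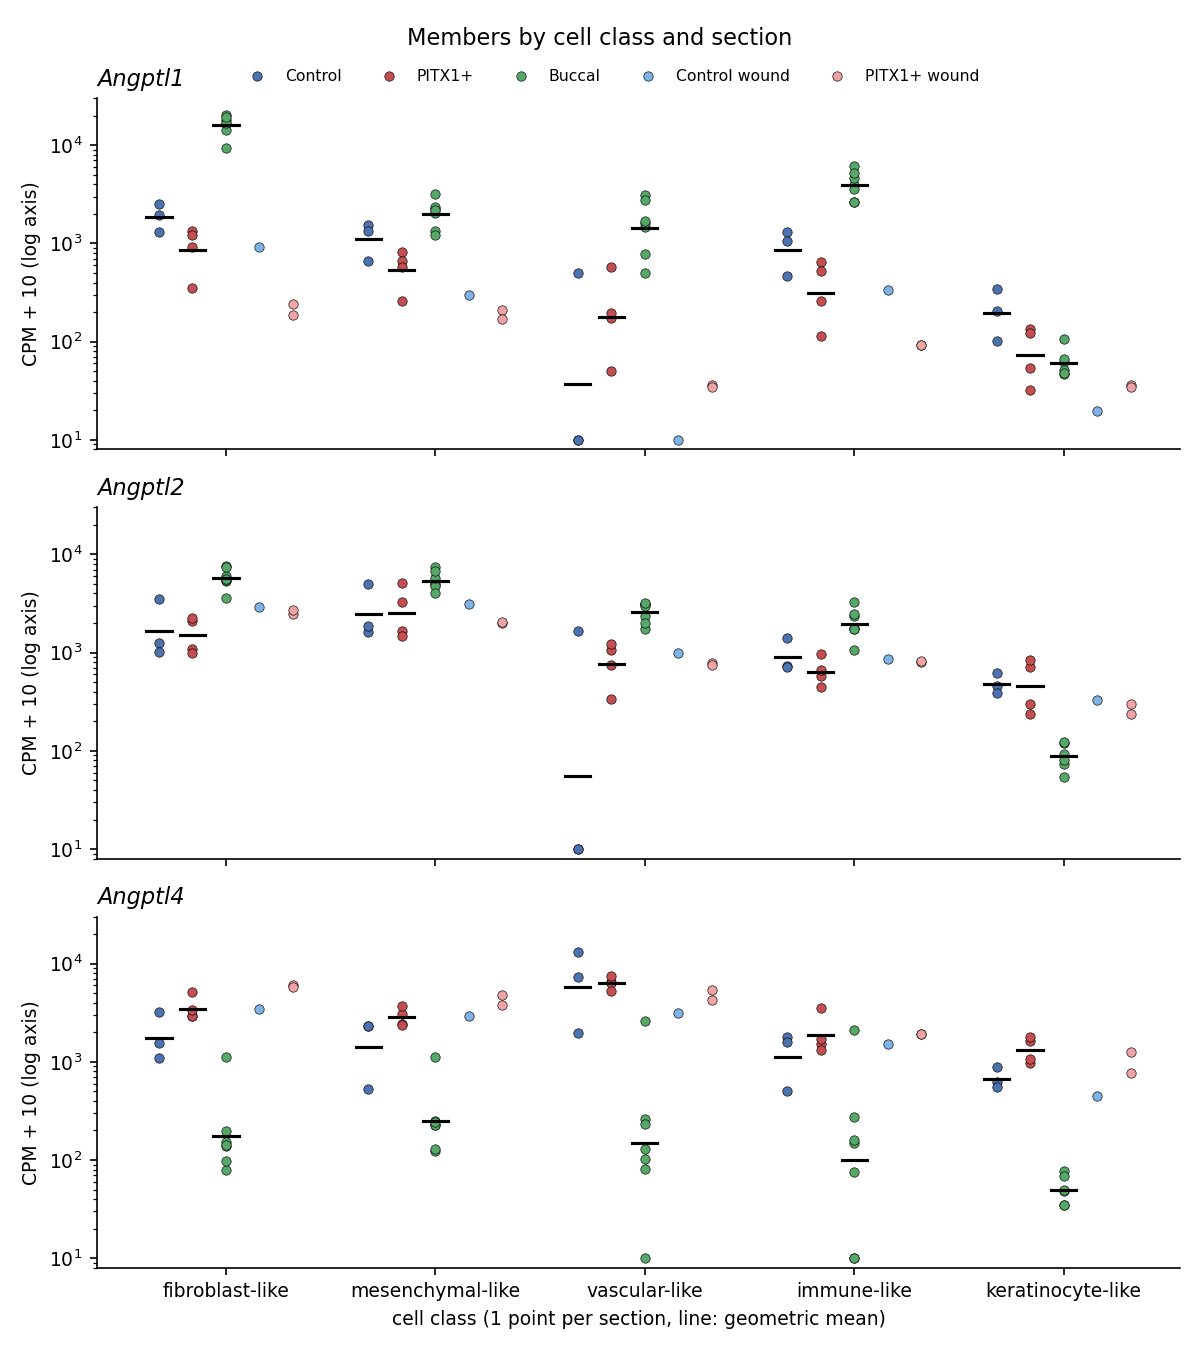
Level of each member by cell class, as CPM + 10 on a log axis, with 1 point per section and a line at the geometric mean of groups of 3 or more. Buccal sections lie above all skin sections for Angptl1 in fibroblast-like cells (9268 to 20271 CPM), and for Angptl4 there 6 of the 7 lie between 70.0 and 188 CPM, below all skin sections.

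Buccal mucosa was compared with Control skin, as healthy oral and skin tissue. Angptl1 in fibroblast-like cells was at 2504, 1950 and 1298 CPM in Control 1, 2 and 3, and in the 7 buccal sections at 9268 at the lowest, 17004 at the median and 20271 at the highest. No buccal section overlapped with Control skin, as was so for 25.3% of the panel genes tested in these cells. The mean was 16310 ± 3669 CPM (SD, n = 7) against 1917 ± 604 (n = 3), a change of 2.80 (log2, SE 0.36), or 6.98-fold (edgeR quasi-likelihood test, Benjamini-Hochberg adjusted p = 0.000195). Of the panel genes tested in fibroblast-like cells, 37.2% passed the adjusted p of 0.05 in this comparison.

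Angptl4 moved the other way in the same cells. It was at 3203, 1536 and 1094 CPM in the Control sections (353, 182 and 134 transcripts), and in the buccal sections at 70.0 at the lowest, 132 at the median and 1118 at the highest (2 to 55 transcripts). The highest was Buccal 3, the only buccal section to reach the Control range. The change was -3.30 (log2, SE 0.68, edgeR adjusted p = 0.00304), and between -4.05 and -3.05 when any single section was left out.

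Angptl2 in fibroblast-like cells had 1252, 1013 and 3543 CPM in the Control sections against 3575, 5609 and 7649 CPM (lowest, median, highest) in the mucosa. The groups did not overlap, yet the highest Control section, the male one, lay just under the lowest buccal one. The change of 1.12 (log2, SE 0.51) missed the threshold (edgeR adjusted p = 0.097). Without that section, Control 3, it was 2.34 (edgeR adjusted p = 0.000677). It also passed with library size alone (1.61, edgeR adjusted p = 0.010) and with DESeq2 (1.22, adjusted p = 0.028).

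The fibroblast-like cells of the 2 tissues lay largely in different clusters. In the mucosa 6803 of 8129 belonged to cluster 30, led by Abca8a, Scn7a, Igfbp6, Tnxb and Col14a1, with Pi16 and Cd34 among its leading genes, and Control skin had 258 cells there. Within cluster 30, Angptl1 was at 3739, 9865 and 4085 CPM in the Control sections (12, 11 and 44 transcripts) and at 10118 to 21209 CPM in the buccal sections. The sections did not overlap, but Control 2 lay close under the lowest buccal one on only those 11 transcripts. Angptl4 in cluster 30 was at 2805, 3587 and 557 CPM in Control skin (9, 4 and 6 transcripts) and at 80.2 to 180 CPM in the mucosa. Angptl2 overlapped there, at 1870 to 4735 CPM against 4198 to 7650 CPM. The share of all genes without overlap was not counted within this cluster. Of all Angptl1 transcripts in kept cells of a buccal section, 36.9% to 70.8% lay in cluster 30.

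**Figure D2:**
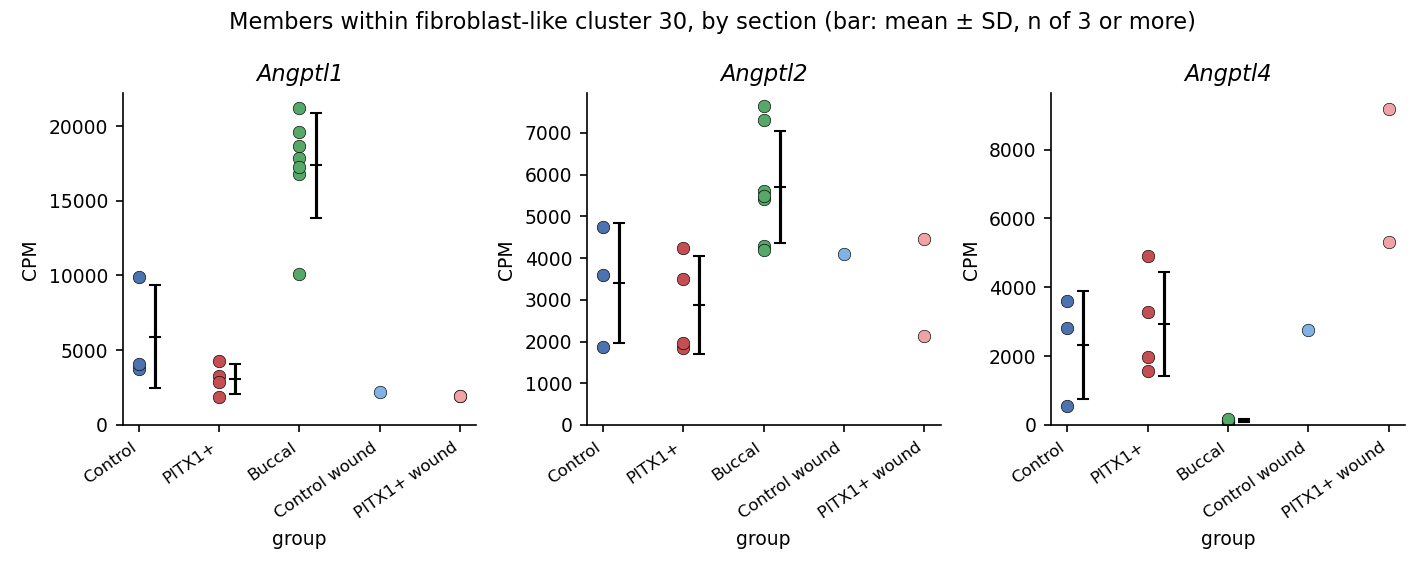
Level of each member within fibroblast-like cluster 30, in CPM by group, with 1 point per section and the mean ± SD of groups of 3 or more. The buccal points lie between 10118 and 21209 CPM for Angptl1 and between 80.2 and 180 CPM for Angptl4.

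In buccal mesenchymal-like cells too, Angptl1 was higher and Angptl4 lower than in Control skin. Angptl1 was 2075 ± 664 CPM (SD, n = 7) against 1174 ± 470 (n = 3), a change of 1.22 (log2, SE 0.37, edgeR adjusted p = 0.019). Angptl2 was 5510 ± 1178 against 2793 ± 1858 CPM, a change of 1.23 (SE 0.43, edgeR adjusted p = 0.033), and Angptl4 fell by 2.16 (SE 0.58, edgeR adjusted p = 0.010). All 3 members passed in that class, where 44.3% of genes did. The Angptl2 call held in 2 of the 10 fits that left out 1 section, and with 30 and 60 clusters its change was 0.36 and 0.91 (edgeR adjusted p = 0.602 and 0.141). The call for Angptl1 was lost with library size alone (0.83, edgeR adjusted p = 0.072) and without Buccal 7 (1.01, edgeR adjusted p = 0.054). That for Angptl4 was lost without Control 1 (-1.91, edgeR adjusted p = 0.051) and without Control 2 (-1.77, edgeR adjusted p = 0.057). Cluster 2, led by the muscle filament gene Des and the channel subunit gene Abcc9, held 14860 of the 17295 buccal mesenchymal-like cells, and 18.8% to 56.4% of a buccal section's Angptl2 transcripts. In Control skin it held 810 of 5370 mesenchymal-like cells, and cluster 8 held 4072, so the class was a different mixture in each tissue. Within cluster 2 Angptl2 overlapped, at 1544, 1753 and 9192 CPM in the Control sections and 4156 to 7400 CPM in the mucosa. Within cluster 8 it overlapped too, at 1641 to 4758 CPM and 2977 to 6884 CPM. Angptl1 overlapped in both, at 965, 390 and 121 CPM against 727 to 2882 CPM in cluster 2 and at 1676, 1513 and 796 CPM against 1191 to 3405 CPM in cluster 8. Angptl4 overlapped in cluster 8 (322 to 2240 against 0 to 536 CPM) but not in cluster 2 (484 to 2188 against 114 to 342 CPM). The share of all genes without overlap was not counted within these clusters.

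In immune-like cells Angptl1 rose by 1.91 (log2, SE 0.42, edgeR adjusted p = 0.00753; 25% of genes passed). The fibroblast markers summed to 57614 to 92300 CPM in those buccal immune-like cells and to 135728 to 257746 CPM in Control skin. In fibroblast-like cells themselves these markers summed to 246523 CPM in the mucosa and 393775 CPM in Control skin. Angptl1 had means of 16310 and 1917 CPM there, so the marker sums alone do not measure what such cells could add. Their part in the result was not tested. Angptl2 (0.88, edgeR adjusted p = 0.131) and Angptl4 (-2.63, edgeR adjusted p = 0.076) did not pass there.

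Keratinocyte-like cells held little of any member in the mucosa. Angptl2 was at 444, 381 and 610 CPM in the Control sections and between 44.6 and 114 CPM in 6 buccal sections. Angptl4 was at 879, 618 and 542 CPM against 24.6 to 67.3 CPM. Neither gene overlapped between the tissues, and nor did 70.4% of all genes tested in this class. The changes were -1.22 (log2, SE 0.35, edgeR adjusted p = 0.00986) and -2.62 (SE 0.35, adjusted p = 7.32e-05), in a class where 68.5% of genes passed. Angptl1, at 337, 196 and 92.4 CPM against 36.5 to 97.5 CPM, gave -0.44 (edgeR adjusted p = 0.399).

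The class held different cells in each tissue. Control skin had 993 sebaceous-like and 5157 hair follicle keratinocyte-like cells, and the mucosa 0 and 712. Among basal keratinocyte-like cells the sections overlapped, with Angptl4 at 594, 548 and 68.4 CPM in Control 1 to 3 and 101 to 258 CPM in the mucosa, and Angptl2 at 460, 326 and 114 CPM against 154 to 364 CPM. Among differentiated keratinocyte-like cells they did not, with Angptl4 at 53.7 to 425 CPM against 0 to 14.8 CPM and Angptl2 at 211 to 358 CPM against 12.7 to 39.3 CPM. The clusters behind a kind also differed between the tissues. No test was made within a kind, and the share of all genes without overlap was not counted there.

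The size of these changes depended on the scaling. By library size alone the changes of Angptl1, Angptl2 and Angptl4 in keratinocyte-like cells were -1.95, -2.56 and -4.04 (edgeR adjusted p = 0.00243, 6.02e-05 and 3.77e-06). Per cell they were 0.29, -0.20 and -1.78 (edgeR adjusted p = 0.690, 0.711 and 0.00597). With 60 clusters the class was a different set of cells, and it also took in cells of Buccal 3. It then held a sebaceous-like cluster of 4241 cells led by Gpx3, Pparg and Igf1, with 10393 CPM of Angptl4 and 3395 CPM of Angptl2. In the main clustering those genes led unnamed cluster 42, outside the class. With 60 clusters all 3 changes were above 0 and none passed (0.69, 1.34 and 0.46, edgeR adjusted p from 0.442 to 0.827).

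In vascular-like cells Angptl4 was at 13222, 7267 and 1939 CPM in Control skin, from 27, 5 and 14 transcripts, and at 0 to 254 CPM in 6 buccal sections and 2585 CPM in Buccal 3. It changed by -3.83 (log2, SE 1.10, edgeR adjusted p = 0.047; 10.4% of genes passed). The call held in 2 of the 10 fits that left out 1 section and was lost with 30 clusters, over the nucleus alone, without the filter on low genes, with transcripts of any quality and with only cells of at least 20 transcripts. Angptl1 and Angptl2 had 0 to 12 transcripts in the Control sums of this class, and no change is given for them.

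Over all cells, Angptl1 was at 957, 826 and 607 CPM in Control skin and at 414, 1790 and 3319 CPM (lowest, median, highest) in the mucosa. The lowest buccal section, Buccal 6, lay below all Control sections. Of its cells 43.4% were salivary-like and 4.78% fibroblast-like, and Angptl1 in the latter was at 9268 CPM. The change over all cells was 1.89 (log2, SE 0.54, edgeR adjusted p = 0.016; 38.1% of genes passed). It did not pass with library size alone (1.40, edgeR adjusted p = 0.086) or without any 1 of the 3 Control sections (edgeR adjusted p from 0.053 to 0.061). Angptl2 (1.09, edgeR adjusted p = 0.132) and Angptl4 (-1.53, edgeR adjusted p = 0.274) did not pass over all cells. In sums of this kind, fewer cells of a class and less RNA per cell cannot be told apart.

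Angptl4 in the mucosa was set apart by 1 section. Buccal 3 had 3297 CPM over all cells and the other 6 sections 52.7 to 128 CPM. Without Buccal 3 the change over all cells was -3.52 (log2, edgeR adjusted p = 4.47e-05). In Buccal 3, 497 cells belonged to unnamed cluster 42, led by Gpx3, the lipid regulator Pparg and Igf1, against at most 35 cells in any other buccal section, and they held 64.5% of its Angptl4 transcripts at 8751 CPM. The same cluster had 13088, 7726 and 2752 CPM of Angptl4 in the Control skin sections and 3455 to 11251 CPM in PITX1+ skin. Pooled over all sections it had 8266 CPM of Angptl4 and the inflammatory fibroblast-like cluster 7 had 7160 CPM, the 2 highest levels of the 45 clusters. Their order turned in the wounds, where cluster 7 was above cluster 42 in all 3 (4617 against 3917, 7933 against 5815 and 6993 against 5886 CPM). With 30 clusters an inflammatory fibroblast-like cluster was highest (6632 CPM). The panel's lipid genes do not separate adipocytes from sebocytes, so cluster 42 is named by its genes only.

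**Figure D3:**
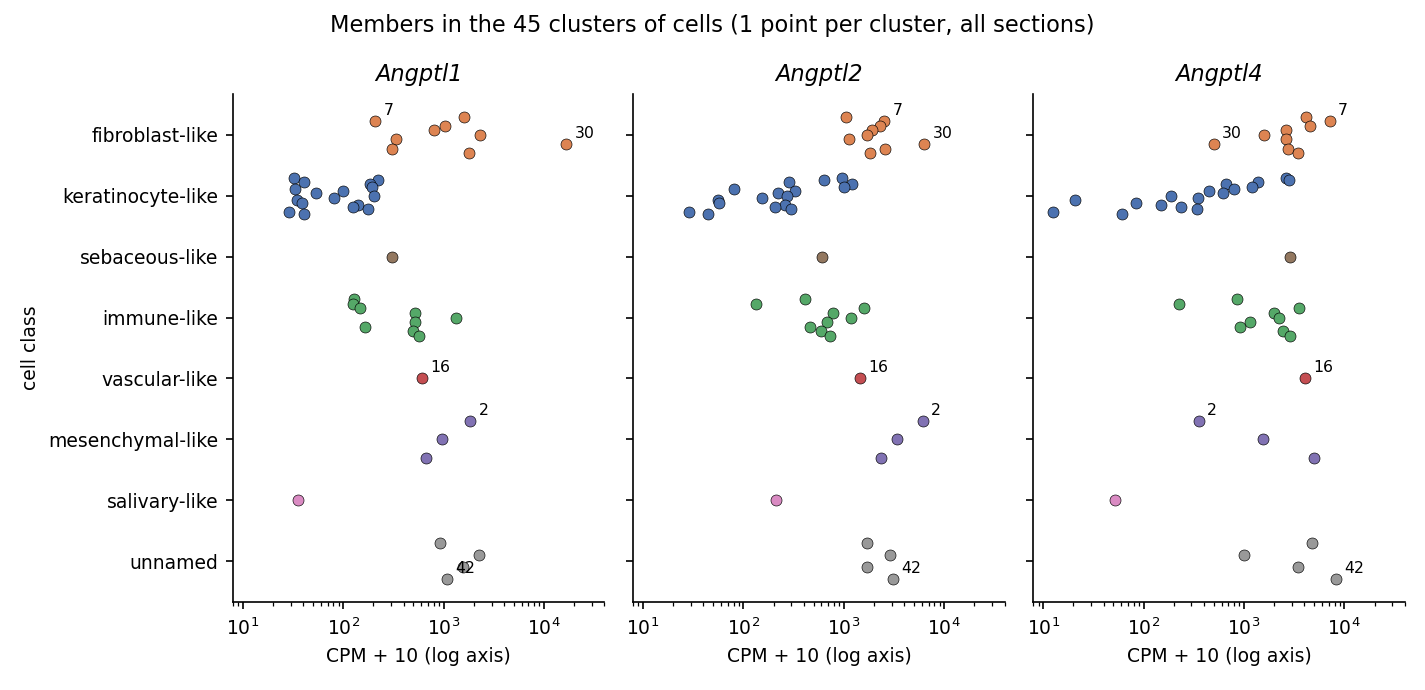
Level of each member in each of the 45 clusters, pooled over all sections, as CPM + 10 on a log axis, ordered by cell class. Cluster 30 stands alone at the top for Angptl1 (16610 CPM), clusters 30 and 2 lie close together for Angptl2 (6308 and 6129 CPM), and clusters 42 and 7 are the highest for Angptl4 (8266 and 7160 CPM). The order within these pairs differs between groups of sections. The mean of Angptl2 was higher in cluster 2 than in cluster 30 in Control (4163 against 3398 CPM) and PITX1+ skin (4535 against 2883 CPM). The Control mean of cluster 2 rests on Control 3 at 9192 CPM. Control 1 and 2 had 1544 and 1753 CPM there, below the 1870 to 4735 CPM of cluster 30 in Control skin.

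The PITX1+ sections were compared with Control skin, 4 against 3 with the slide as a covariate, to ask whether the members change when Pitx1 is induced in the epidermis. Over all cells Angptl1 was at 957 and 826 CPM in the female and 607 CPM in the male Control sections, and at 405, 438, 120 and 337 CPM in PITX1+ 1 to 4, of which 1 and 2 are female. Every PITX1+ section lay below every Control section, and 16.5% of all genes had no overlap here. The change was -1.34 (log2, SE 0.39, edgeR adjusted p = 0.043; 20.4% of genes passed), and the log2 ratio of means was -1.08 within the female and -1.41 within the male slide. In fibroblast-like cells the levels were 2504, 1950 and 1298 CPM against 1333, 1218, 339 and 914 CPM. Here PITX1+ 1 overlapped with the Control range. The change was -1.21 (SE 0.35, edgeR adjusted p = 0.035; 16.2% of genes passed), and -0.80 and -1.05 within the female and the male slide. The clusters of the class differed between the conditions. Cluster 17 held 4011 of the 9178 fibroblast-like cells of Control skin and 5392 of the 49121 of PITX1+ skin, and within it Angptl1 overlapped, at 3055, 1956 and 1129 CPM in Control 1 to 3 and at 4466, 3090, 1337 and 1056 CPM in PITX1+ 1 to 4.

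Both calls for Angptl1 were sensitive. They held in 2 of the 7 fits that left out 1 section, those without PITX1+ 3 and without PITX1+ 4, and the adjusted p rose as far as 0.176 over all cells and 0.157 in fibroblast-like cells. Per cell rather than per transcript the changes were -0.24 and -0.21 (edgeR adjusted p = 0.691 and 0.755). Fibroblast-like cells had a median of 29 to 33 transcripts in the Control sections and of 32 to 80 in the PITX1+ sections. In keratinocyte-like cells Angptl1 gave -1.19 (edgeR adjusted p = 0.065), from 337, 196 and 92.4 CPM in Control to 125, 112, 43.6 and 22.2 CPM, with -1.17 and -1.49 within the female and the male slide.

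Angptl4 was higher in keratinocyte-like cells of PITX1+ skin, at 968, 1048, 1637 and 1798 CPM against 879, 618 and 542 CPM. The groups did not overlap, as for 26.8% of genes. The change was 0.95 (log2, SE 0.22, edgeR adjusted p = 0.021; 29.9% of genes passed), 0.43 within the female slide and 1.66 within the male slide. It held in 3 of the 7 fits that left out 1 section. With 60 clusters the class also took in the sebaceous-like cluster led by Gpx3 and Pparg. The change did not pass with library size alone (0.89, edgeR adjusted p = 0.091), with 60 clusters (0.40, edgeR adjusted p = 0.466) or without the main sebaceous-like cluster (2.05, edgeR adjusted p = 0.061). In Control sections that main sebaceous-like cluster had 7430 ± 3488 CPM of Angptl4 (SD, n = 3) and in PITX1+ sections 2349 ± 846 CPM (n = 4). Hair follicle keratinocyte-like clusters ran the other way, at 538 ± 441 CPM in Control and 2364 ± 396 CPM in PITX1+ sections. These clusters differed in level. Pooled over all sections, clusters 1 and 3 had 2605 and 2819 CPM of Angptl4, and clusters 18 and 32 had 657 and 341 CPM. Whether their mixture differed between the conditions was not tested, so the means do not show a rise within a cluster.

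In fibroblast-like cells Angptl4 had 3203, 1536 and 1094 CPM in Control and 5162, 2909, 2901 and 3354 CPM in PITX1+ skin. The change of 0.75 (log2, SE 0.30) missed the threshold (edgeR adjusted p = 0.106), and was 0.77 within the female and 1.52 within the male slide. Per cell it was 1.64 (edgeR adjusted p = 0.015). Angptl2 gave -0.70 (SE 0.28, edgeR adjusted p = 0.106) there, and -0.14 and -0.70 within the slides.

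Over all cells neither Angptl2 (-0.79, edgeR adjusted p = 0.065) nor Angptl4 (0.49, edgeR adjusted p = 0.326) passed. None of the members passed in immune-like (6.44% of genes passed) or mesenchymal-like cells (1.88%), where Angptl1 had changes of -1.25 and -0.98 and Angptl4 of 0.79 and 1.01 (log2, edgeR adjusted p from 0.093 to 0.258). Both members kept their sign within each slide in these classes. In vascular-like cells (5.76% of genes passed) Angptl4 gave 0.35 (edgeR adjusted p = 0.673), with opposite signs within the female (-0.66) and the male slide (1.70). The difference of the PITX1+ change between the male slide (3 sections) and the female slide (4 sections) did not pass for any member in the classes where it was tested (edgeR interaction, adjusted p from 0.151 to 1.00), which leave out Angptl1 in vascular-like cells.

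The levels of Angptl2 are also given by slide. Over all cells the male unwounded sections had 2335, 1202 and 1914 CPM and the female ones 849, 735, 448 and 508 CPM, without overlap. In mesenchymal-like cells too, the lowest male section lay above the highest female one, at 1462 to 1843 CPM for the female sections. Angptl1 over all cells was 120 to 607 CPM on the male and 405 to 957 CPM on the female slide, which overlapped. No test was made between the slides, and sex and slide cannot be told apart. The share of all panel genes without overlap between the slides was not counted, so these values are a description only.

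The wounds were compared with unwounded male skin. Angptl4 in fibroblast-like cells was at 3422 CPM in the Control wound (95% Poisson interval 3206 to 3648, counting error only) and at 6036 (5833 to 6245) and 5710 (5575 to 5849) in the PITX1+ wounds, against 1094, 2901 and 3354 CPM in the male unwounded sections. The groups did not overlap, and nor did those of 37.6% of all genes. With condition as a covariate, wounds exceeded unwounded skin by 1.04 (log2, SE 0.26, edgeR adjusted p = 0.024; 28.6% of genes passed). The call was lost when condition was left out of the fit (0.88, edgeR adjusted p = 0.133), and it held in 2 of the 6 fits that left out 1 section, those without Control 3 and without the Control wound.

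Cluster 7, inflammatory fibroblast-like cells led by the protease gene Mmp3, the chemokine gene Cxcl5 and the acute phase gene Saa3, held part of that Angptl4. It gave 9.18% of the Angptl4 transcripts of the Control wound and 22.2% and 32.5% of those of the PITX1+ wounds, at 4617, 7933 and 6993 CPM. The male unwounded sections on the other side of that test held 3, 14 and 2 cells of cluster 7, and the wounds 496, 2359 and 7821, so the class was a different mixture in wounds. In the fibroblast-like clusters 6, 11, 17, 30 and 39 together, led among others by Col1a1, Tnxb and Lum, Angptl4 was at 3458, 8070 and 5869 CPM in the wounds and 1108, 3253 and 3300 CPM in male unwounded skin, with no overlap. The lowest wound lay just above the highest unwounded section, at 3458 against 3300 CPM. For these clusters the share of all genes without overlap was not counted, and a change within them was not tested. In the fibroblast-like clusters 14, 20 and 37 together, all with Wif1 among their leading genes, the sections overlapped, at 1773, 2261 and 3037 CPM and 915, 2394 and 3532 CPM. Cluster 7 was also present in unwounded female PITX1+ skin, with 1675 cells and 9467 CPM of Angptl4 in PITX1+ 1 and 624 cells and 4451 CPM in PITX1+ 2. Inflammatory fibroblast-like cells made up 0.0144% of the cells of Control skin.

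Angptl1 was lower in the wounds without passing. In fibroblast-like cells the Control wound had 921 CPM (95% Poisson interval 810 to 1042) and the PITX1+ wounds 176 (142 to 214) and 233 (206 to 262), against 1298, 339 and 914 CPM in unwounded male skin. The Control wound lay within the unwounded range, and the change was -1.38 (log2, SE 0.51, edgeR adjusted p = 0.078). Angptl2 was at 2901, 2451 and 2694 CPM in the wounds and gave -0.04 (edgeR adjusted p = 0.913). In keratinocyte-like cells (1.83% of genes passed) Angptl2 had 323, 289 and 225 CPM in the wounds against 610, 712 and 835 CPM unwounded, a change of -1.15 (edgeR adjusted p = 0.120). Over all cells (32.3% of genes passed) and in immune-like cells (48.3%) no member passed (edgeR adjusted p from 0.083 to 0.391). With 1 Control wound there was no test between the wounds. In keratinocyte-like cells Angptl4 had 437 CPM (95% Poisson interval 390 to 489) in the Control wound and 1245 (1190 to 1302) and 756 (716 to 798) in the PITX1+ wounds.

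Position within the tissue was read from the distance of each fibroblast-like cell to the nearest keratinocyte-like cell, near being within 50 µm and far beyond 100 µm. In 6 buccal sections Angptl4 was lower near the epithelium in all 6 (-1.16 ± 0.58, log2 ratio of near to far, SD) and Angptl1 higher in all 6 (0.57 ± 0.69), each at the smallest p that 6 sections allow (exact permutation p = 0.0312, adjusted p = 0.062 over 6 relations). The Angptl4 ratios rest on 1 to 6 transcripts near the epithelium and 1 to 41 far from it in each section. With near set at 25 µm, Angptl1 was higher in 4 of the 6 sections (0.37 ± 0.71, exact permutation adjusted p = 0.344). In the 7 skin sections Angptl2 was lower near the epithelium in 6 (-0.43 ± 0.35, exact permutation adjusted p = 0.062), and neither Angptl1 (exact adjusted p = 0.250) nor Angptl4 (exact adjusted p = 0.131) passed. All 3 wounds had less Angptl4 near the epithelium than far from it, 2194 against 4725 CPM in the Control wound, 4073 against 10268 CPM and 3812 against 7900 CPM in the PITX1+ wounds.

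Fibroblast-like cells within 20 µm of a vascular-like cell were compared with those beyond 40 µm in the 6 skin sections with enough cells. Vessels here means the 1 vascular-like cluster. Clusters 19, 21 and 24 had vessel genes such as Pecam1 or Lyve1 among their leading genes and were not counted. Cells called far can therefore lie beside cells of those clusters. Angptl4 was higher near vessels in each but did not pass, at 4372 against 2782 CPM (log2 ratio 0.65 ± 0.44, SD, exact permutation p = 0.0312, adjusted p = 0.125). The Control values near vessels rest on 13 Angptl4 transcripts in 51 cells of Control 1 and 12 in 170 cells of Control 3. With near set at 15 µm the ratio was above 0 in 5 of 6 (0.50 ± 0.50, exact permutation adjusted p = 0.188). With near set at 30 µm, all 7 sections entered and the ratio was above 0 in each (0.80 ± 0.68, exact permutation adjusted p = 0.047). Angptl1 was lower near vessels in 5 of 6 sections at 20 µm and did not pass (-0.73 ± 0.65, exact permutation adjusted p = 0.125). At 15 µm its adjusted p was 0.188 by the same exact test, and at 30 µm it was lower in each of the 7 (-0.68 ± 0.49, exact permutation adjusted p = 0.047). Of the wounds, the Control wound had 5116 CPM of Angptl4 near vessels and 2441 CPM far from them, PITX1+ wound 2 had 6379 and 4559 CPM, and PITX1+ wound 1 ran the other way at 5601 and 6469 CPM. In the mucosa no member passed by distance to vessels (exact adjusted p from 0.638 to 1.00).

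**Figure D4:**
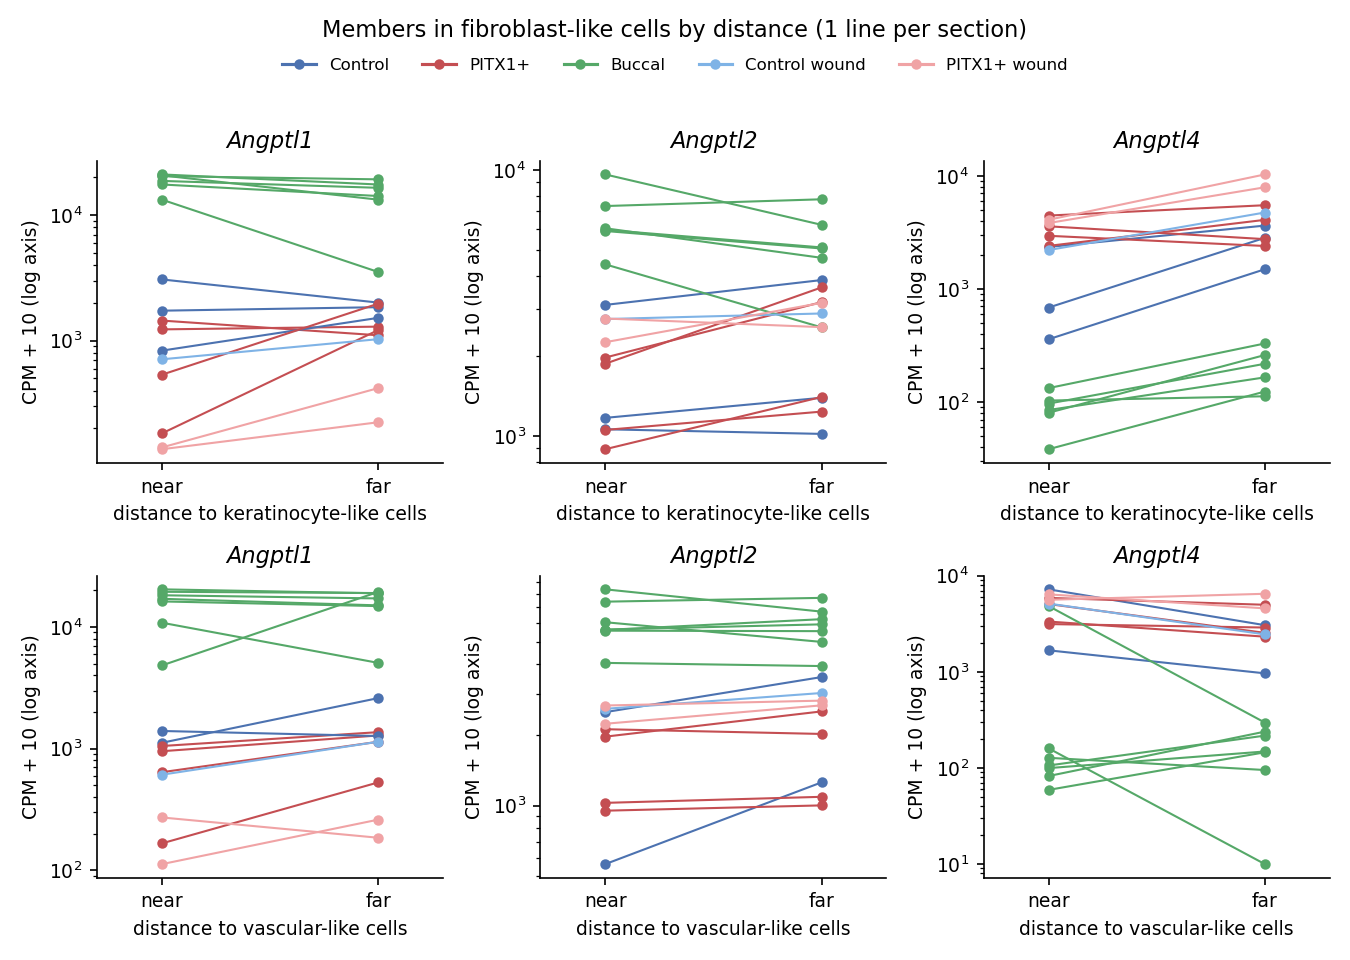
Level of each member in fibroblast-like cells near and far from keratinocyte-like cells (top, within 50 and beyond 100 µm) and vascular-like cells (bottom, within 20 and beyond 40 µm), as CPM + 10 on a log axis with 1 line per section. Angptl4 falls toward the epithelium in all 6 buccal sections and all 3 wounds.

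Over 117 sums of a cell kind in an unwounded section, which share sections and depth, the genes closest to Angptl1 by Pearson's r of log2(CPM + 10) were Abca8a (0.85), Igfbp6 (0.83), Igfbp5 (0.83), Scn7a (0.82) and Tnxb (0.82). Those closest to Angptl2 were Cd34 (0.89), Col14a1 (0.87), Lum (0.86), Abca8a (0.86) and Igfbp5 (0.85). Abca8a and Igfbp5 stood on both lists, and Angptl1 and Angptl2 had r = 0.75 with each other. Angptl4 was closest to Ccn4 (0.80), Mlana (0.70), Saa3 (0.68), Mdk (0.67) and Mmp14 (0.67), and had r = 0.08 with Angptl1 and 0.31 with Angptl2. With a pseudocount of 1 in place of 10, 3 of the 5 genes stayed the same for Angptl1, 5 of 5 for Angptl2 and 3 of 5 for Angptl4.

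Partners and pathway genes were followed in fibroblast-like cells. Of 9 integrin and matrix genes, which include Itga5, a chain of an integrin through which Angptl2 is known to act, 2 rose and 3 fell in the mucosa (median change 0.38, all genes -0.28, log2), where 37.2% of all genes passed. The leading ones were the collagen-binding integrin chain Itga1 (1.45, SE 0.23, edgeR adjusted p = 0.000652) and Itgb3 (-1.15, SE 0.36, edgeR adjusted p = 0.028). In wounds 3 rose and none fell (median 0.20, all genes 0.14), where 28.6% of all genes passed, with Itga1 at 1.35 and the syndecan Sdc1 at 1.11 (edgeR adjusted p = 0.038 and 0.023). The third was Itga5 itself (0.97, SE 0.28, edgeR adjusted p = 0.037), which is named after its value was seen. In PITX1+ skin, where 16.2% of all genes passed, Sdc1 alone rose (1.29, edgeR adjusted p = 0.015).

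Of 7 PPAR and lipid genes, 3 fell and none rose in the mucosa (median -1.12, all genes -0.28), where 37.2% of all genes passed. The fatty acid elongase Elovl6 changed by -2.35 (SE 0.45, edgeR adjusted p = 0.00193) and the PPAR partner Rxra by -1.86 (SE 0.30, edgeR adjusted p = 0.000652). Elovl6 also led the sebaceous-like cluster, of which the mucosa held no cells, and the part of such cells in this value was not tested. In PITX1+ skin Fabp5, a fatty acid carrier, rose (1.67) and Rxra fell (-1.36), both at edgeR adjusted p = 0.014. The list's median change was -0.72 there (all genes -0.05), where 16.2% of all genes passed. In wounds Pparg fell (-1.64, edgeR adjusted p = 0.029). The list's median change in wounds was -1.02 (all genes 0.14), where 28.6% of all genes passed.

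Of 10 vessel genes, 4 rose and 1 fell in buccal fibroblast-like cells (median 0.86, all genes -0.28), beside the 37.2% of all genes that passed. The endothelial genes Adgrl4 (2.43) and Pecam1 (1.33) led the rise (edgeR adjusted p = 0.00459 and 0.011), while the venular chemokine receptor Ackr1 fell (-1.56, edgeR adjusted p = 0.015). Ackr1 also fell in PITX1+ skin (-1.19, edgeR adjusted p = 0.034) and in wounds (-2.53, edgeR adjusted p = 0.00608), as the only vessel gene to pass in either. The list's median change was -0.20 in PITX1+ skin (all genes -0.05), where 16.2% of all genes passed. In wounds it was 0.30 (all genes 0.14), where 28.6% passed. Vascular markers summed to 7475 to 15166 CPM in buccal and 4694 to 7259 CPM in Control fibroblast-like cells, and their part in these values was not tested. Of 7 TGF-beta pathway genes, 1 passed in the mucosa, 1 in PITX1+ skin and 2 in wounds, where 37.2%, 16.2% and 28.6% of all genes did. The list's median changes were 0.35, 0.21 and 0.34, beside -0.28, -0.05 and 0.14 for all genes. Tgfb3 rose in the mucosa (1.02), Tgfbi fell in PITX1+ skin (-2.11), and Thbs1 (1.60) and Tgfb1 (0.94) rose in wounds (edgeR adjusted p from 0.012 to 0.048).

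The share of a member's transcripts lying over the nucleus was read without a test. Over all cells it was 56.9% to 57.8% for Angptl4 in the Control sections and 54.0% to 54.6% in the PITX1+ sections. In the same sections it was 39.5% to 48.3% and 34.9% to 56.5% for Angptl1. For Angptl2 it was 36.3% to 56.7% and 36.2% to 59.7%, and for all panel genes together 39.1% to 43.2% and 42.4% to 48.4%. Angptl4 had 44.1% to 46.8% in the wounds and 40.8% to 50.7% in the mucosa. All panel genes had 39.9% to 44.3% and 25.6% to 30.1% there.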

How the data were processed

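Xenium in situ slides of mouse skin, buccal mucosa and wounds were used, 4 in all. For each transcript the deposited table holds a quality score beside a position, a nucleus mark and the cell (other quantities). The deposited cells table holds counts per cell, which equalled the counts made here from transcripts scored 20 or higher in 100% of cells. Software versions are not given in the sources used here. Sections were cells chained within 100 µm (200 µm on the wounded slide) with at least 2000 cells, ordered by position. Cells of 10 or more transcripts were clustered by k-means (k = 45, 40 principal components, scikit-learn 1.9.0) without the members and Pitx1. A cluster took a class name when at least 3 markers of the class were raised 1.5-fold and its 10 leading genes held more markers of that class than of any other. This naming rule was chosen after the clusters were seen. Doublets were not called.

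Sums per section and class (at least 20 cells) were tested with edgeR 4.0.16 (quasi-likelihood test, filterByExpr, TMM, Benjamini-Hochberg adjustment over all genes tested, threshold 0.05). SE is the change divided by the square root of F. A signed change is the first-named group minus the second. Sign-flip tests were two-sided and exact over sections. Alternatives included DESeq2 1.42.0, other scalings, clusterings and filters. The edgeR and sign-flip steps were tested on simulated data. Members and lists were chosen with earlier results of these data known. Named are the 3 members, the 5 genes of most similar pattern to each, the leading genes of clusters, Pitx1, and genes past the threshold in fixed lists, at most 2 per direction. Poisson intervals cover counting error only. Cell and nucleus outlines were not used.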

Additional observations from a re-analysis of the deposited data

Results flagged for a closer look

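Angptl4 in section Buccal 3 stood apart from the other buccal sections, being the highest by a gap larger than Dixon's limit in all cells and in 4 classes. It was at 3297 CPM over all cells (others 52.7 to 128), 1118 CPM in fibroblast-like cells (70.0 to 188), 2112 CPM in immune-like cells (0 to 264), 1111 CPM in mesenchymal-like cells (114 to 238) and 2585 CPM in vascular-like cells (0 to 254). These 5 values come from 1 section and share its cells. Angptl1 in keratinocyte-like cells was highest in Buccal 7, at 97.5 CPM against 36.5 to 57.1 CPM in the other 5 sections. Chance gives such a gap in about 1 in 20 groups, and 36 were examined.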

How the results depend on the processing

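Log2 changes are given after each result, and a call means an adjusted p under 0.05. Of 920 values under other settings, 742 kept their direction and their side of the threshold, 76 lost a call, 47 gained one, 43 changed sign and 12 values without a test moved by more than their spread. The rise of Angptl1 and the fall of Angptl4 in buccal fibroblast-like cells kept their calls without any 1 section. The cause of the changes below was not tested. No paired analysis was possible because the sections carry no replicate numbers that the groups share.

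With library size alone, the call was lost for Angptl1 in all cells of PITX1+ skin (-1.21), Angptl1 in fibroblast-like cells of PITX1+ skin (-0.90), Angptl4 in keratinocyte-like cells of PITX1+ skin (0.89) and Angptl1 in all cells of mucosa (1.40). There, a call was gained for Angptl1 in keratinocyte-like cells of PITX1+ skin (-1.28), Angptl2 in fibroblast-like cells of mucosa (1.61) and Angptl1 in keratinocyte-like cells of mucosa (-1.95). Then the sign turned for Angptl2 in fibroblast-like cells of wounds (0.062). Per cell, the call was lost for Angptl1 in all cells of PITX1+ skin (-0.24), Angptl1 in fibroblast-like cells of PITX1+ skin (-0.21), Angptl2 in keratinocyte-like cells of mucosa (-0.20) and Angptl4 in fibroblast-like cells of wounds (1.66). Here the sign turned for Angptl2 in all cells of PITX1+ skin (0.27), Angptl2 in fibroblast-like cells of PITX1+ skin (0.29), Angptl2 in keratinocyte-like cells of PITX1+ skin (0.75), Angptl2 in immune-like cells of PITX1+ skin (0.038), Angptl2 in mesenchymal-like cells of PITX1+ skin (0.51), Angptl1 in keratinocyte-like cells of mucosa (0.29), Angptl2 in fibroblast-like cells of wounds (0.59) and Angptl4 in keratinocyte-like cells of wounds (0.34). There too a call was gained for Angptl4 in fibroblast-like cells of PITX1+ skin (1.64), Angptl2 in all cells of mucosa (2.29) and Angptl2 in fibroblast-like cells of mucosa (2.69). Over the nucleus alone, the call was lost for Angptl1 in all cells of PITX1+ skin (-1.26), Angptl1 in fibroblast-like cells of PITX1+ skin (-1.06) and Angptl4 in keratinocyte-like cells of PITX1+ skin (0.81). There, a call was gained for Angptl2 in fibroblast-like cells of mucosa (1.43) and Angptl1 in keratinocyte-like cells of mucosa (-2.13). Then the sign turned for Angptl2 in fibroblast-like cells of wounds (0.039), Angptl1 in keratinocyte-like cells of wounds (0.0096), Angptl2 in immune-like cells of wounds (0.19), Angptl2 immune-like over keratinocyte-like cells of skin (-0.10), Angptl4 fibroblast-like over mesenchymal-like cells of skin (-0.16) and Angptl2 fibroblast-like over mesenchymal-like cells of mucosa (-0.033). Without the slide covariate, the call was lost for Angptl1 in all cells of PITX1+ skin (-1.37), Angptl1 in fibroblast-like cells of PITX1+ skin (-1.23) and Angptl4 in keratinocyte-like cells of PITX1+ skin (1.08). Here the sign turned for Angptl2 in keratinocyte-like cells of PITX1+ skin (0.061). With DESeq2, a call was gained for Angptl2 in all cells of PITX1+ skin (-0.83), Angptl1 in keratinocyte-like cells of PITX1+ skin (-1.25), Angptl2 in fibroblast-like cells of mucosa (1.22), Angptl1 in fibroblast-like cells of wounds (-1.44) and Angptl2 in keratinocyte-like cells of wounds (-1.21). With 30 clusters, the call was lost for Angptl1 in fibroblast-like cells of PITX1+ skin (-1.03). There too the sign turned for Angptl1 mesenchymal-like over immune-like cells of skin (-0.072), Angptl1 keratinocyte-like over vascular-like cells of skin (-0.56), Angptl2 keratinocyte-like over vascular-like cells of skin (-1.33), Angptl4 mesenchymal-like over immune-like cells of skin (-0.34) and Angptl2 fibroblast-like over mesenchymal-like cells of mucosa (-0.085). With 60 clusters, the call was lost for Angptl1 in fibroblast-like cells of PITX1+ skin (-0.98) and Angptl4 in keratinocyte-like cells of PITX1+ skin (0.40). There, a call was gained for Angptl1 in keratinocyte-like cells of PITX1+ skin (-1.37) and Angptl1 in fibroblast-like cells of wounds (-1.46). Then the sign turned for Angptl2 in mesenchymal-like cells of PITX1+ skin (0.35), Angptl1 in keratinocyte-like cells of mucosa (0.69), Angptl2 in keratinocyte-like cells of mucosa (1.34), Angptl4 in keratinocyte-like cells of mucosa (0.46), Angptl1 keratinocyte-like over vascular-like cells of skin (-1.61), Angptl2 keratinocyte-like over vascular-like cells of skin (-1.45), Angptl4 mesenchymal-like over immune-like cells of skin (-0.31), Angptl1 mesenchymal-like over vascular-like cells of mucosa (-0.083) and Angptl2 fibroblast-like over mesenchymal-like cells of mucosa (-0.038). With transcripts of any quality, a call was gained for Angptl1 in keratinocyte-like cells of PITX1+ skin (-1.03) and Angptl2 in fibroblast-like cells of mucosa (1.40). Here the sign turned for Angptl1 in keratinocyte-like cells of mucosa (0.18) and Angptl2 in fibroblast-like cells of wounds (0.036). Without the sebaceous-like cluster, the call was lost for Angptl4 in keratinocyte-like cells of PITX1+ skin (2.05). Without condition, the call was lost for Angptl4 in fibroblast-like cells of wounds (0.88). Within the female slide (no test), the value moved for Angptl4 in all cells of PITX1+ skin (0.036), Angptl2 in fibroblast-like cells of PITX1+ skin (-0.14), Angptl2 in keratinocyte-like cells of PITX1+ skin (-0.68) and Angptl4 in keratinocyte-like cells of PITX1+ skin (0.43). There too the sign turned for Angptl4 in vascular-like cells of PITX1+ skin (-0.66). Within the male slide (no test), the value moved for Angptl4 in all cells of PITX1+ skin (1.49), Angptl4 in fibroblast-like cells of PITX1+ skin (1.52) and Angptl4 in keratinocyte-like cells of PITX1+ skin (1.66). There, the sign turned for Angptl2 in keratinocyte-like cells of PITX1+ skin (0.34). With a pseudocount of 100, the sign turned for Angptl1 keratinocyte-like over vascular-like cells of skin (-0.14). With near set at 30 µm, the sign turned for Angptl1 near vessels in the mucosa (0.028). With near set at 15 µm, the sign turned for Angptl4 near vessels in the mucosa (-0.073).

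With 1 section left out, calls or signs changed as follows (lowest to highest value). Angptl1 in all cells of PITX1+ skin gave -1.56 to -1.05 (lost without Control 1, Control 2, PITX1+ 1, PITX1+ 2, Control 3). Angptl2 in all cells of PITX1+ skin gave -0.89 to -0.63 (gained without PITX1+ 4). Angptl1 in fibroblast-like cells of PITX1+ skin gave -1.50 to -0.98 (lost without Control 1, Control 2, PITX1+ 1, PITX1+ 2, Control 3). Angptl1 in keratinocyte-like cells of PITX1+ skin gave -1.46 to -0.83 (gained without PITX1+ 4). Angptl4 in keratinocyte-like cells of PITX1+ skin gave 0.76 to 1.09 (lost without Control 1, Control 2, PITX1+ 2, Control 3). Angptl1 in immune-like cells of PITX1+ skin gave -1.41 to -1.07 (gained without PITX1+ 4). Angptl4 in vascular-like cells of PITX1+ skin gave -0.46 to 1.62 (gained without Control 1 and turned without Control 3). Angptl1 in all cells of mucosa gave 1.72 to 2.32 (lost without Control 1, Control 2, Control 3). Angptl2 in all cells of mucosa gave 0.81 to 1.83 (gained without Control 3). Angptl4 in all cells of mucosa gave -3.52 to -0.93 (gained without Buccal 3). Angptl2 in fibroblast-like cells of mucosa gave 0.77 to 2.34 (gained without Control 3). Angptl1 in keratinocyte-like cells of mucosa gave -0.81 to 0.00698 (turned without Control 1). Angptl2 in keratinocyte-like cells of mucosa gave -1.44 to -0.79 (lost without Control 3). Angptl2 in immune-like cells of mucosa gave 0.66 to 1.34 (gained without Control 3). Angptl4 in immune-like cells of mucosa gave -4.10 to -2.29 (gained without Control 3, Buccal 3). Angptl4 in vascular-like cells of mucosa gave -5.68 to -2.77 (lost in 8 of 10 fits, not without Control 3, Buccal 3). Angptl1 in mesenchymal-like cells of mucosa gave 1.01 to 1.40 (lost without Buccal 7). Angptl2 in mesenchymal-like cells of mucosa gave 0.85 to 2.34 (lost in 8 of 10 fits, not without Control 3, Buccal 6). Angptl4 in mesenchymal-like cells of mucosa gave -2.73 to -1.77 (lost without Control 1, Control 2). Angptl1 in fibroblast-like cells of wounds gave -1.68 to -0.90 (gained without Control 3, Control wound 1). Angptl2 in fibroblast-like cells of wounds gave -0.24 to 0.26 (turned without Control 3, Control wound 1). Angptl4 in fibroblast-like cells of wounds gave 0.88 to 1.09 (lost without PITX1+ 3, PITX1+ 4, PITX1+ wound 1, PITX1+ wound 2). Angptl1 in keratinocyte-like cells of wounds gave -1.53 to 0.027 (turned without Control 3). Angptl1 in immune-like cells of wounds gave -1.26 to -0.52 (gained without PITX1+ 3). Angptl2 in immune-like cells of wounds gave -0.57 to 0.028 (turned without Control 3).

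Depth limits the vascular-like sums of Control skin, with 5 to 27 Angptl4 transcripts, the cluster 30 sums there, with 4 to 9, and the buccal fibroblast-like sums near the epithelium, with 1 to 6. Xenium assigns a transcript to a cell by its outline, so transcripts of neighbours can enter a class, which was not tested. The 4 slides were not replicated, and 1 Control wound gives no spread.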
